A study of Homo sapiens with 40 samples.

Results

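The peroxiredoxins and the antioxidant enzymes that work beside them were followed through single T47D cells. T47D is an oestrogen receptor positive human breast cancer cell line of luminal type. The genes were chosen by symbol, with earlier results of these data known: PRDX1, PRDX2, PRDX3, PRDX4, PRDX5, PRDX6, TXN, SOD1, SOD2 and GPX4. Of these 10 genes, 9 matched a row among the 60279 genes of each count table. The identifier of SOD2 in GENCODE release 44 matched no row, so SOD2 was not analysed here.

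All cells were at passage 10 and were sorted as EpCAM+/CD49f+ cells that lacked DAPI, CD45 and CD31 staining. The number of cultures and of plates is not stated in the sources used here. They were processed with G&T (the RNA arm of a combined genome and transcriptome protocol), with the Takara SMART-seq HT kit or with the NEB single cell kit, in 13, 13 and 14 cells. The SMART-seq3 arm of the study was not analysed here. Leaving out 2 G&T, 2 Takara and 3 NEB wells left 11 cells per protocol, so 33 of 40 cells were kept. The labels give no treatment or genetic change, and ERCC spike-in RNA was added to every lysate. The G&T and Takara template-switching oligos carried a locked nucleic acid and the NEB oligo did not. NEB libraries were made with the kit's own reagents, and the others with Nextera XT. The cDNA of NEB cells was also amplified for more PCR cycles than that of G&T and Takara cells. Since 1 run served each protocol, the effects of protocol and run cannot be told apart. A protocol is thus a single sample, its cells give the spread within it, and no test between protocols was possible.

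Reads on genes ranged from 658154 to 1166630 per kept G&T cell, from 818512 to 1287910 per Takara cell and from 624772 to 963816 per NEB cell. The NEB cells held a median of 5161 detected genes, against 11253 in G&T and 10983 in Takara. The median share of ERCC reads was 11.9% with NEB, 1.80% with G&T and 0.977% with Takara. Luminal epithelial markers had reads in every protocol, 9 of 9 in each, with a summed level of 3982 to 15853 CPM (counts scaled to a common total of reads on genes) for G&T, 10129 to 26998 for Takara and 1993 to 7331 for NEB cells. Basal and immune markers stayed at or below a summed 2.62 CPM in any cell. KRT5 and KRT14 had no read in Takara or NEB cells. Of 4 mesenchymal markers, 3 had reads in G&T and 2 in the other protocols, with up to 128 CPM in a NEB cell and ZEB1 at 0 everywhere. Endothelial markers had reads in G&T cells only, up to 25.5 CPM, with CDH5 at 0. The part of these differences in the results was not tested.

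The G&T cells E2 and H1 stood apart from the other G&T cells. They had the fewest detected genes, 10074 and 9541, and the highest ERCC shares, 2.75% and 2.49%. For PRDX3 and TXN some values are also given without them, and all other G&T values include them.

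Cells make superoxide in their mitochondria and elsewhere, and superoxide dismutases turn it into hydrogen peroxide. Peroxiredoxins reduce that peroxide through a reactive cysteine, and thioredoxin then returns most of them to their working state. Glutathione peroxidase 4 does a related task in membranes, where it reduces lipid peroxides with a selenocysteine and so protects cells from ferroptosis. The genes are expressed in nearly all cell types.

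The genes lie on separate chromosomes for the most part. On GRCh38, with GENCODE release 44, PRDX1 (ENSG00000117450) lies at chr1:45510914-45542732 on the minus strand and PRDX6 (ENSG00000117592) at chr1:173477330-173488815 on the plus strand. PRDX3 (ENSG00000165672) lies at chr10:119167720-119178812 on the minus strand, TXN (ENSG00000136810) at chr9:110243810-110256507 on the minus strand, and PRDX5 (ENSG00000126432) at chr11:64318121-64321811 on the plus strand. Chromosome 19 holds GPX4 (ENSG00000167468) at chr19:1103982-1106791 on the plus strand and PRDX2 (ENSG00000167815) at chr19:12796820-12801800 on the minus strand. SOD1 (ENSG00000142168) lies at chr21:31659666-31668931 on the plus strand and PRDX4 (ENSG00000123131) at chrX:23664262-23686397 on the plus strand. The MANE Select transcripts are short, from 737 bases for TXN to 1690 for PRDX6. Their GC content runs from 36.8% in TXN and 40.2% in PRDX3 to 60.6% in PRDX5 and 62.3% in GPX4.

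The coding stretch around the catalytic residue shows how alike the family members are and how much their base composition differs, which the comparison between protocols returns to. Each is read 5′ to 3′ on the coding strand of the MANE Select transcript, within 1 exon, and the capitals mark the codon of the reactive cysteine, both cysteine codons of the active site in TXN, and the in-frame TGA read as selenocysteine in GPX4.
PRDX2: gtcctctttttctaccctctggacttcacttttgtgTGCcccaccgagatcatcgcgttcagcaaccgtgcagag
PRDX3: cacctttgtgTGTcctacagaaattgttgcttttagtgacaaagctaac
PRDX4: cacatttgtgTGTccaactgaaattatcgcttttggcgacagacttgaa
PRDX5: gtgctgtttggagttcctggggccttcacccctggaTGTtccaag
TXN: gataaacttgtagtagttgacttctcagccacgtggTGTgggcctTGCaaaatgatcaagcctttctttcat
GPX4: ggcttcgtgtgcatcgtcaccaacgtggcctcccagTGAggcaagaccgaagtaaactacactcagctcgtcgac
These are exon 3 of PRDX2 (chr19:12800984-12801058, codon 51), exon 4 of PRDX3 (chr10:119173824-119173872, codon 108), exon 3 of PRDX4 (chrX:23674990-23675038, codon 124), exon 2 of PRDX5 (chr11:64319824-64319868, codon 100), exon 2 of TXN (chr9:110251358-110251429, codons 32 and 35) and exon 3 of GPX4 (chr19:1105367-1105441, codon 73). Over the 49 bases around the catalytic codon, PRDX3 and PRDX4 share 37 bases, PRDX2 and PRDX3 share 31, and PRDX2 and PRDX4 share 33. Over those 49 bases GC is 57.1% in PRDX2, 38.8% in PRDX3 and 40.8% in PRDX4.

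All 9 genes had at least 1 read in every one of the 33 kept cells. Among all genes at 1 CPM or more, 40.1% had a read in every kept G&T cell, 53.1% in every Takara cell and 13.5% in every NEB cell. With at least 5 reads asked for, 8 of the 9 genes remained in every NEB cell and 9 in the other protocols. The lowest values were 2 reads of PRDX6 in NEB cell G2 and 5 reads of GPX4 in NEB cell E2. The 9 genes took 0.341% to 0.626% of the reads on genes in G&T cells, with medians of 0.444% with G&T, 0.468% with Takara and 0.491% with NEB. Their summed share of the reads on genes was thus near the same in the 3 protocols. In CPM its mean was 4509 ± 781 with G&T, 4664 ± 613 with Takara and 4904 ± 765 with NEB (SD, n = 11 cells each). The single genes were distributed differently. Counted per ERCC read, as given below, each of the 9 genes was lower in NEB than in G&T and Takara.

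In each comparison a pooled level was used, which is the sum of reads over the 11 cells in CPM, and a gene was counted when its pooled levels differed by 2-fold or more with 1 CPM added. Between G&T and Takara, 0 of 9 genes passed in either direction, where 25.7% of all 14658 genes were above 2-fold in G&T and 17% in Takara. Between G&T and NEB, GPX4, SOD1 and PRDX6 passed as higher in G&T, 3 of 9 beside 48.7% of all 14795 genes. PRDX3 alone passed as higher in NEB, 1 of 9 beside 19.5%. Between Takara and NEB, GPX4, PRDX6, SOD1 and PRDX1 passed as higher in Takara, 4 of 9 beside 43.7% of all 13532 genes. PRDX3 and TXN passed as higher in NEB, 2 of 9 beside 24.3%. The 9 genes had a median log2 ratio of -0.26 for G&T over Takara, beside 0.16 over all genes. With NEB as the denominator the median was 0.05 for G&T (0.92 over all genes) and 0.67 for Takara (0.56 over all genes). The 3 comparisons share protocols with each other. Pooled levels of the 9 genes lay between 111 and 1782 CPM, whereas the genes they are set beside start at 1 CPM. The shares and medians over all genes are thus not matched to them in level. With 10 CPM added, medians over all genes in the same order of comparison were 0.07, 0.22 and 0.19. Those of the 9 genes were -0.25, 0.05 and 0.65. PRDX6 between G&T and NEB, at 2.00-fold, and PRDX1 between Takara and NEB, at 2.03-fold, lay just past 2-fold. With TMM factors their log2 ratios were 0.90 and 0.98, and with DESeq2 size factors 0.77 and 0.89, all short of 2-fold.

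Genes were also counted when their cells did not overlap at all. This asks for a read in every cell of the higher protocol, which all 9 genes had. Over all genes at 1 CPM or more in a protocol, only 40.1% had one with G&T, 53.1% with Takara and 13.5% with NEB. The shares over all genes below thus include many that could not be counted, and no share among like genes was taken. Between G&T and Takara there were 0 of the 9, beside 0.669% of all genes with every G&T cell above every Takara cell and 1.26% the other way. Every G&T cell was above every NEB cell for SOD1 and GPX4, 2 of 9 beside 3.31%, and every NEB cell was above every G&T cell for PRDX3, 1 of 9 beside 1.03%. Every Takara cell was above every NEB cell for SOD1 and GPX4, 2 of 9 beside 8.41%, and every NEB cell was above every Takara cell for PRDX3 and TXN, 2 of 9 beside 1.61%.

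**Figure D1:**
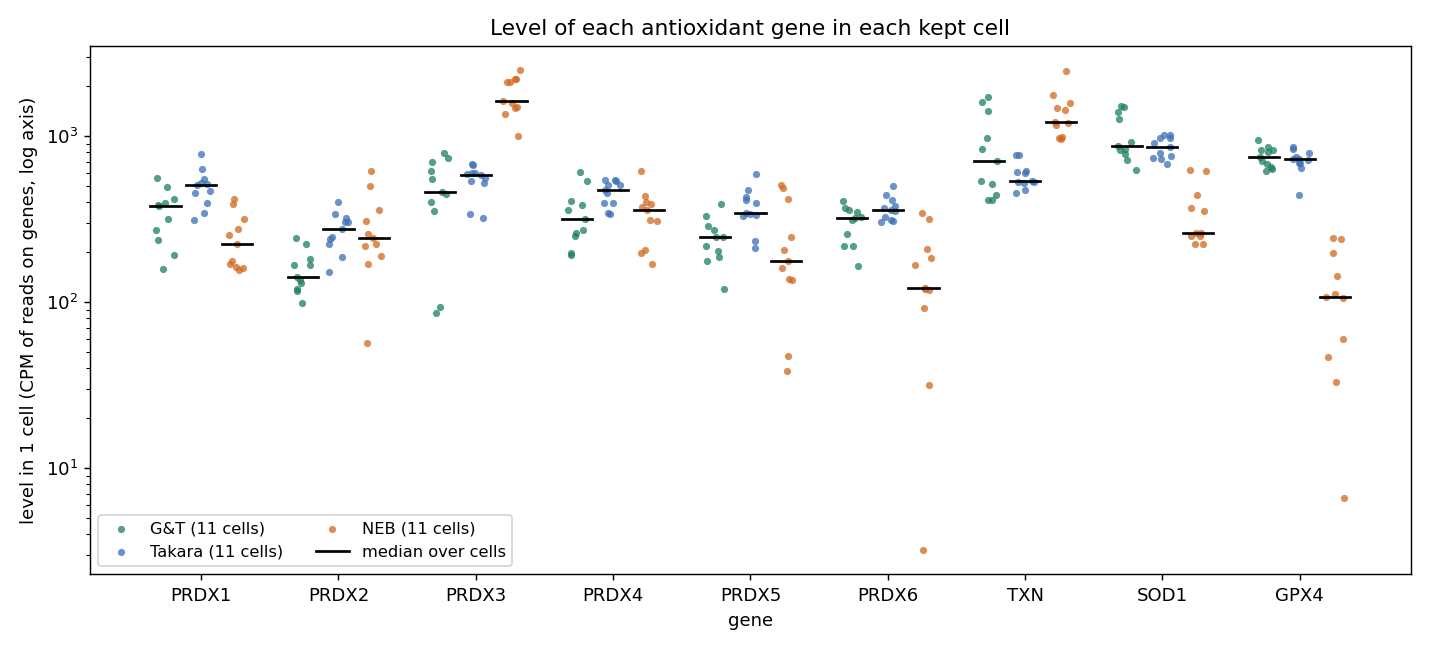
Level of each gene in each kept cell, in CPM of reads on genes on a log axis. Points are cells, 11 per protocol, and black lines are medians over cells. The NEB cells sit above all others for PRDX3 and below all others for SOD1 and GPX4, and 2 G&T cells sit at 85.8 and 93.4 CPM of PRDX3.

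PRDX3 is the peroxiredoxin of the mitochondrial matrix and gave the widest gap of the family. Its level ran from 85.8 CPM in the lowest G&T cell through a median of 459 to 787 in the highest, from 320 through 582 to 680 in Takara, and from 1003 through 1632 to 2500 in NEB. The lowest NEB cell was thus above the highest G&T cell and the highest Takara cell. The pooled level was 472 CPM with G&T (459 to 486, the 95% Poisson interval), 545 with Takara (532 to 559) and 1782 with NEB (1753 to 1812), intervals that cover counting error only. NEB was 3.77-fold above G&T and 3.27-fold above Takara, and both gaps were larger than the spread between cells on the log2 scale. The 2 lowest G&T cells were E2 and H1, and in the other 9 the level ran from 355 to 787 CPM. Without them the log2 ratio of G&T over NEB was -1.64 in place of -1.91, and that of G&T over Takara 0.06 in place of -0.21, a direction that thus rested on these cells.

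PRDX1 and PRDX2 are the cytosolic members that thioredoxin recycles, and PRDX1 is also a chaperone when it forms high-order complexes. PRDX1 ran from 159 CPM through a median of 380 to 561 with G&T, from 314 through 507 to 782 with Takara and from 156 through 224 to 420 with NEB. The cells of the 3 protocols overlapped. PRDX1 was 2.03-fold higher in Takara than in NEB, a gap larger than the spread between cells, and 1.47-fold higher in G&T than in NEB, which was within it. PRDX2 ran from 98.5 through 141 to 244 CPM with G&T, from 153 through 277 to 402 with Takara and from 56.6 through 244 to 613 with NEB. NEB held both the lowest and the highest PRDX2 cell, and no pair of protocols passed 2-fold.

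PRDX4 is the member that is secreted and works in the endoplasmic reticulum, where it takes part in forming disulphide bonds. It ran from 193 CPM through a median of 315 to 605 with G&T, from 340 through 471 to 544 with Takara and from 169 through 358 to 617 with NEB. The Takara cells lay inside the range of the other 2 protocols. Pooled levels were 337 CPM in G&T and 341 in NEB, a log2 ratio of -0.02.

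PRDX5 is found in mitochondria, peroxisomes and the cytosol, and PRDX6 is the 1-Cys member, which also acts on phospholipids and does not depend on thioredoxin. PRDX5 ran from 119 through 245 to 390 CPM with G&T, from 210 through 346 to 590 with Takara and from 38.4 through 176 to 507 with NEB. PRDX6 ran from 165 through 321 to 406 CPM with G&T, from 304 through 360 to 499 with Takara and from 3.20 through 121 to 342 with NEB. In NEB both genes thus reached far lower in some cells while their highest cells overlapped those of the other protocols. For PRDX6 the pooled level was 306 CPM with G&T, 367 with Takara and 152 with NEB. It was 2.40-fold higher in Takara than in NEB, by more than the spread between cells, and 2.00-fold higher in G&T than in NEB, which was within that spread.

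TXN encodes thioredoxin, the small protein that reduces most peroxiredoxins. Its level ran from 411 CPM through a median of 707 to 1716 with G&T, from 456 through 539 to 770 with Takara and from 958 through 1218 to 2474 with NEB. All NEB cells were above all Takara cells, and G&T cells overlapped both. NEB was 2.40-fold above Takara and 1.49-fold above G&T. The highest G&T cells were H1 (1716 CPM), E2 (1593 CPM) and D2 (1418 CPM), and the median of the 9 cells other than E2 and H1 was 536 CPM. Without these 2 cells the log2 ratio of G&T over Takara was 0.37 in place of 0.69.

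SOD1 encodes the copper and zinc superoxide dismutase of the cytosol. It ran from 621 CPM through a median of 868 to 1522 with G&T, from 676 through 864 to 1013 with Takara and from 223 through 261 to 620 with NEB. The highest NEB cell, D1, had 620 CPM and the lowest G&T cell, B2, had 621, so the separation of those protocols rests on a narrow margin. The pooled level was 1069 CPM with G&T, 853 with Takara and 360 with NEB, 2.96-fold lower in NEB than in G&T and 2.36-fold lower than in Takara, both by more than the spread between cells.

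GPX4 had the largest gap of the 9 genes. It ran from 620 CPM through a median of 743 to 951 with G&T, from 441 through 724 to 863 with Takara and from 6.58 through 108 to 242 with NEB. The G&T and Takara cells lay close together, and every NEB cell lay below them. The pooled level was 766 CPM with G&T (749 to 784), 715 with Takara (700 to 731) and 111 with NEB (104 to 119), which was 6.83-fold and 6.37-fold below the other protocols. Within NEB, GPX4 followed the share of ERCC reads from cell to cell, with a Spearman rho of 0.93 and a Pearson r of 0.88 over 11 cells, and 0.90 and 0.82 over the 9 cells left without the 2 most extreme ERCC shares. This rho was the largest in size among those of the 9 genes with the cell quality measures in the 3 protocols, so it is a selected value. That of GPX4 with the ERCC share was 0.41 in G&T and 0.66 in Takara. In NEB the other genes ran from -0.21 to 0.32. No such value over all genes is given. The NEB cells share a run.

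The directions above are for shares of the reads on genes. Counted per ERCC read instead, genes on the whole moved towards higher values in G&T and Takara against NEB. The median log2 shift over all genes was 1.58 for G&T against NEB and 2.58 for Takara against NEB. A constant was added on the ERCC scale too. It weighs more on genes with few reads per ERCC read, so the shift was not the same for every gene. SOD1 moved from 1.57 to 4.28 for G&T against NEB, and PRDX1 from 1.02 to 4.71 for Takara against NEB. On that scale the log2 ratio of PRDX3 was 0.84 for G&T against NEB and 2.04 for Takara against NEB, and that of TXN was 2.48 for Takara against NEB, so these 3 directions past 2-fold turned. In all, 10 of the 27 ratios changed sign, since all 9 were above 0 for G&T against NEB and for Takara against NEB and none was for G&T against Takara. Those not past 2-fold included TXN (2.17) and PRDX2 (1.84) for G&T against NEB, and TXN (-0.31), SOD1 (-0.67) and GPX4 (-0.89) for G&T against Takara. How many of all genes changed sign on that scale was not counted. The median of all genes there was 1.81 for G&T against NEB, 2.72 for Takara against NEB and -0.69 for G&T against Takara. Genes cannot be placed against it, since the added constant held back genes of low level more. SOD1 was at 4.28 and 4.95 and GPX4 at 5.38 and 6.28. In CPM, PRDX3 (-1.91) lay below the median of all genes for G&T over NEB (0.92). PRDX3 (-1.71) and TXN (-1.26) did so for Takara over NEB (0.56). SOD1 (1.57 and 1.24) and GPX4 (2.77 and 2.67) lay above both medians in CPM.

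Ratios between 2 genes within a cell do not depend on any scaling of the cell. Of the 36 pairs of the 9 genes, 0 had ratios whose cells did not overlap between G&T and Takara, 9 between G&T and NEB and 13 between Takara and NEB. Over all pairs of the 1288 genes read in every kept cell those shares were 6.85%, 12% and 17.1%, and the 36 pairs are not independent of each other. PRDX3 had more reads than SOD1 in 11 of 11 NEB cells, 0 of 11 G&T cells and 0 of 11 Takara cells. The ratio of PRDX3 to SOD1 reads had a median of 5.64 with NEB (2.44 to 9.50), 0.549 with G&T (0.0613 to 0.906) and 0.671 with Takara (0.407 to 0.774). TXN had more reads than GPX4 in all NEB cells, with a median ratio of 16.4 (4.95 to 177), beside 1.08 in G&T (0.5 to 2.00) and 0.826 in Takara (0.613 to 1.08). The comparison is between protocols, so dividing by transcript length would not change it. The protocol ratio itself differed with length over all genes. In quintiles by transcript length the median log2 ratio of Takara over NEB was 0.40 in the shortest, 1.29 in the next and -0.37 in the longest. For G&T over NEB the medians ran from 0.54 to 1.11. TXN, SOD1 and GPX4 fell in the shortest quintile and PRDX3 in the next. The part of length was not tested. A ratio above 1 does not rank the levels of 2 genes of unequal length.

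**Figure D2:**
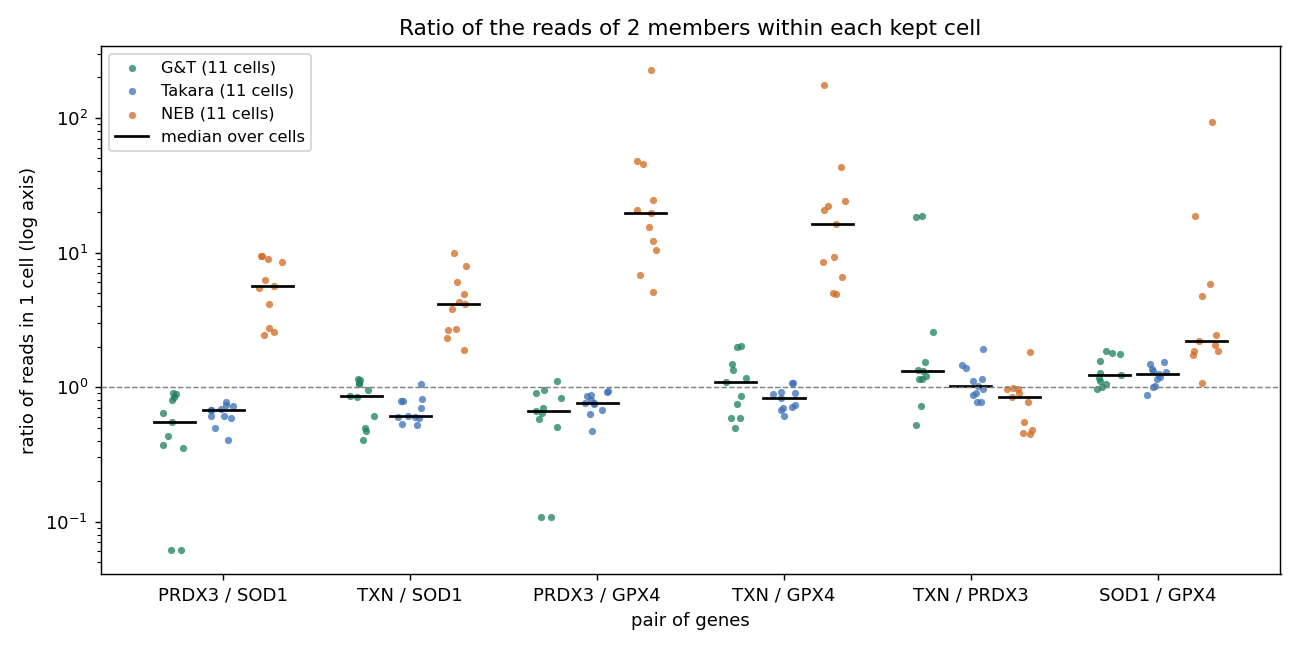
Ratio of the reads of 2 genes within each kept cell, on a log axis, for 6 pairs among PRDX3, TXN, SOD1 and GPX4, chosen after their values were seen. Points are cells, black lines are medians, and the dashed line marks a ratio of 1. NEB cells lie above all others for PRDX3 or TXN over SOD1 or GPX4, and overlap the others for TXN over PRDX3.

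The make-up of the peroxiredoxin reads differed in the same manner. The 6 genes together held 3032 CPM in NEB, above 2502 in Takara and 1867 in G&T. Without PRDX3 the other 5 held 1250 CPM in NEB, below 1956 in Takara and 1394 in G&T. PRDX3 took 58.8% of the 24180 peroxiredoxin reads with NEB (exact 95% binomial interval 58.2 to 59.4), 25.3% of 17735 with G&T (24.7 to 25.95) and 21.8% of 29310 with Takara (21.3 to 22.3). By cell, its share ran from 48.1% to 69.5% with NEB, from 8.16% to 33.9% with G&T and from 14.6% to 25.6% with Takara, so the NEB cells did not overlap the others. It was the gene with most reads in 11 of 11 NEB cells, 7 G&T cells and 6 Takara cells. Per kilobase its share was 47.3% with NEB, 18.3% with G&T and 15.3% with Takara. PRDX1 held 7.89% of the reads in NEB, against 18.9% in G&T and 19.5% in Takara, and PRDX6 held 5.02%, against 16.4% and 14.7%. The share of PRDX2 was close in the 3 protocols, at 9.31% with NEB, 8.27% with G&T and 10.7% with Takara.

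**Figure D3:**
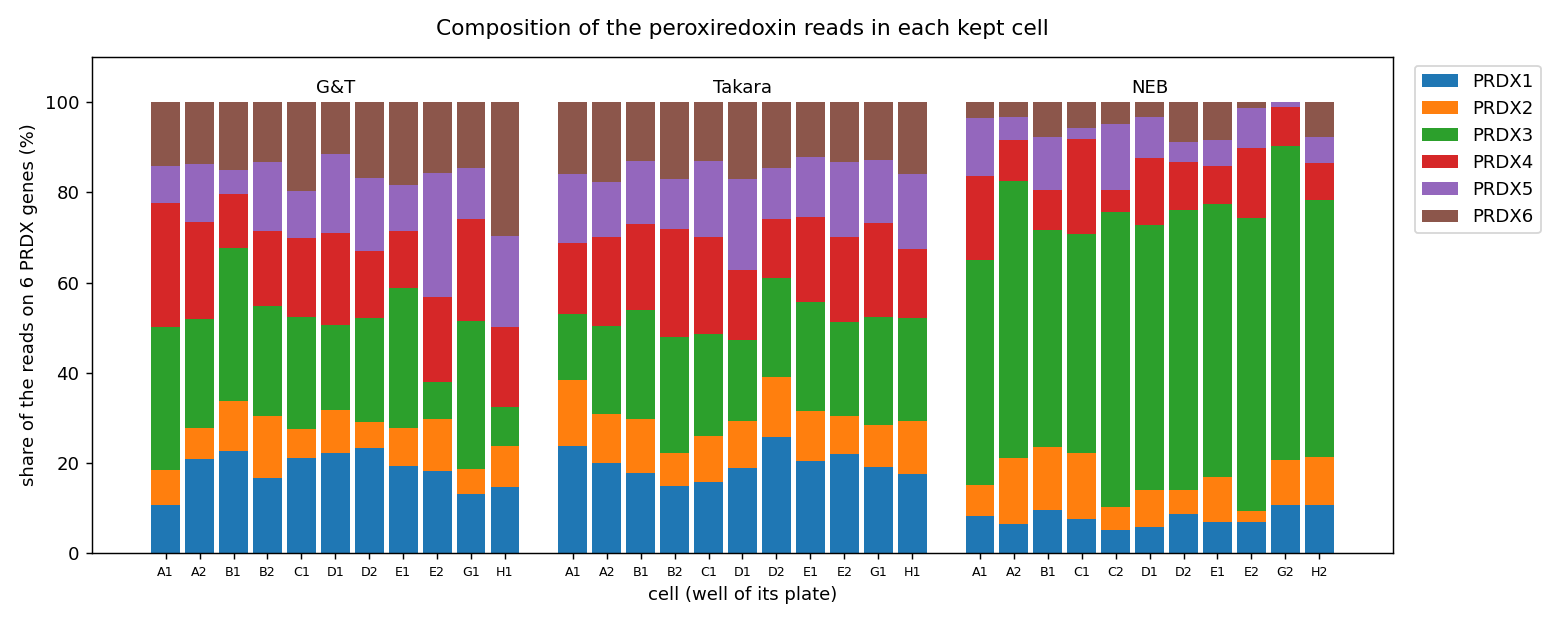
Composition of the reads on the 6 peroxiredoxin genes in each of the 33 kept cells, as stacked bars that add up to 100%. PRDX3 takes 48.1% to 69.5% in every NEB cell, and its lowest shares are those of G&T cells E2 and H1.

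Levels per kilobase of the MANE Select transcript give an order of the genes within a protocol that depends on the length taken for each gene. In Takara SOD1 stood first at 958 ± 141 RPKM (reads per kilobase on the CPM scale, mean and SD over 11 cells), followed by GPX4 (838 ± 132) and TXN (790 ± 143), neighbours that lay within their spread. The gap from TXN to PRDX1 (527 ± 139) was beyond it. From PRDX1 down to PRDX2 (294 ± 77.5) and PRDX6 (218 ± 36.4), neighbours lay within the larger of their SDs. In G&T TXN (1178 ± 667), SOD1 (1143 ± 368) and GPX4 (885 ± 125) again led without a gap beyond their spread, and PRDX2 was last (169 ± 49.3). In NEB TXN (1879 ± 606) and PRDX3 (1152 ± 296) led, each separated from the next by more than the spread. GPX4 (138 ± 95.1) and PRDX6 (91.7 ± 62.1) came last. With the length of the merged exons in place of the MANE Select transcript, 19 of the 27 levels moved by more than the spread. The order in Takara was then TXN (576 ± 104), SOD1 (434 ± 63.8), PRDX5 (433 ± 124) and GPX4 (388 ± 60.9), with TXN apart from the rest. PRDX5 was in front of PRDX1 in G&T too, and TXN and PRDX3 still led in NEB. The count tables do not say which transcripts were present.

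The gap between NEB and the other protocols ran with base composition over all genes. When all genes were split into quintiles by the GC content of the transcript, the median log2 ratio of Takara over NEB was -0.99 in the quintile with least GC, then -0.35, 0.46 and 1.51, and 2.42 in the quintile with most. For G&T over NEB it went from -0.70 to 2.23, and for G&T over Takara from 0.29 to -0.10. PRDX3 and TXN fell in the quintile with least GC, and GPX4, PRDX5 and PRDX2 in the one with most. For Takara over NEB, GPX4 (2.67) lay at percentile 54.2 of its quintile and TXN (-1.26) at 41.1, so both were near the middle of genes of like composition. PRDX3 (-1.71) lay at percentile 27.6, and at 17.4 for G&T over NEB. Others did not follow their quintile. SOD1 (1.24) and PRDX6 (1.26) lay at percentiles 81.9 and 82.4 of a quintile whose median was -0.35. PRDX2 (-0.07) lay at percentile 8.45 and PRDX5 (0.67) at 14.2 of a quintile whose median was 2.42. The part of base composition in these differences was not tested.

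**Figure D4:**
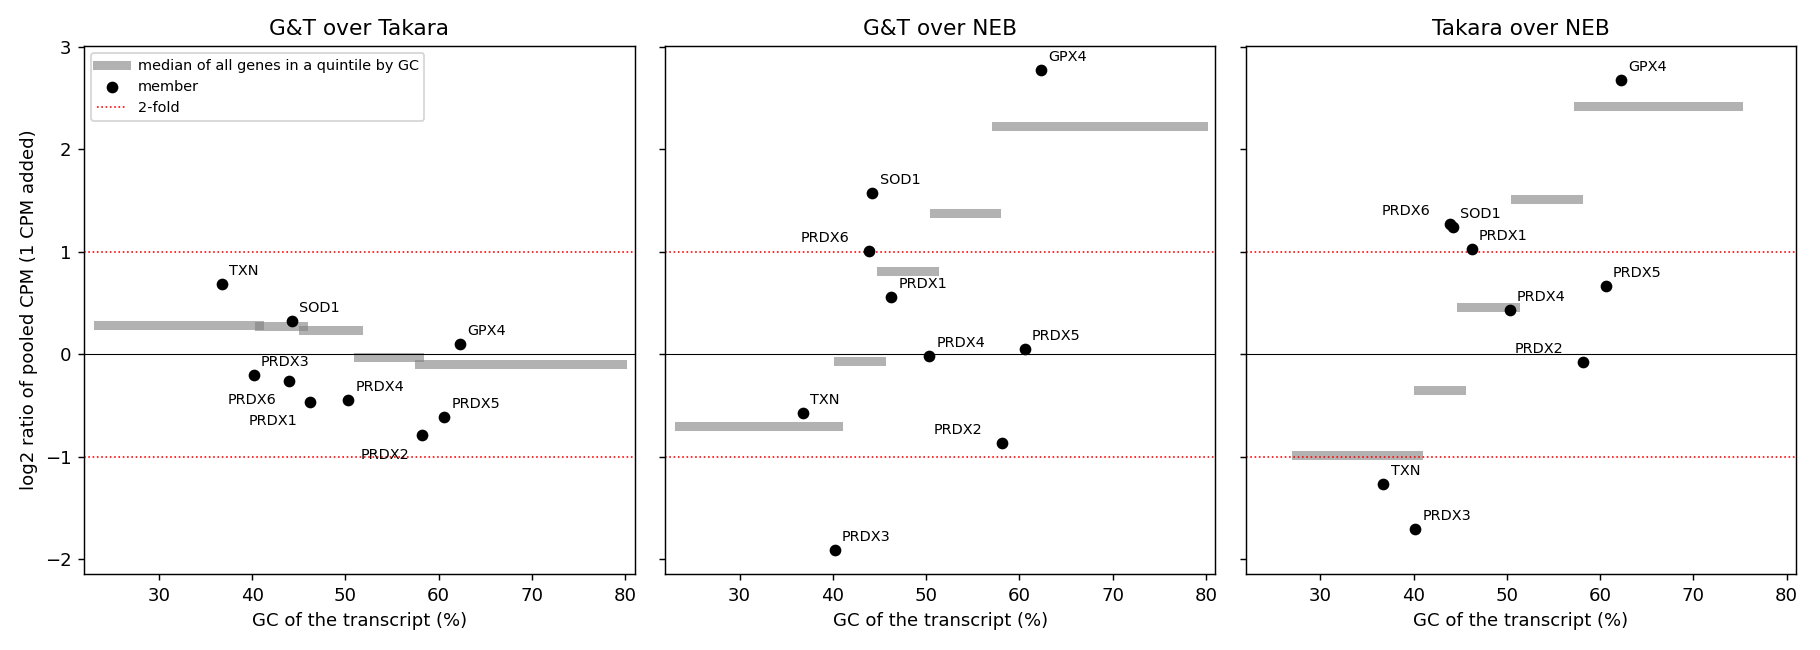
Log2 ratio of pooled CPM for each of the 9 genes (points) against the GC content of its transcript, for the 3 pairs of protocols. Grey bars give the median of all genes in each quintile by GC and dotted lines mark 2-fold. SOD1 and PRDX6 lie above the bar of their quintile in both comparisons with NEB, and PRDX2 and PRDX5 lie far below theirs.

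Between cells of 1 protocol, 8 of the 9 genes varied least in Takara, and GPX4 varied least in G&T. The median coefficient of variation over all genes read in every kept cell of a protocol was also lowest in Takara. How many of all genes varied least in Takara was not counted. In Takara the coefficient of variation ran from 14.7% for SOD1 to 28.7% for PRDX5, beside a median of 44.1% over the 6606 genes read in every kept Takara cell. These genes are abundant, and genes within 1.5-fold of each one's own level had medians of only 22.2% to 27.2%. For G&T those medians were 41.2% to 47.7%, and for NEB 32.8% to 64.5%. Of the 9 genes, 7 lay below that median for Takara, 7 for G&T and 5 for NEB. PRDX1 and PRDX5 lay above it in Takara, at percentiles 64.5 and 64.9. In G&T it ran from 14.1% for GPX4, lower than all but 0.0359% of 5574 genes, to 56.6% for TXN, with a median of 59.7% over all genes. The 49.8% of PRDX3 in G&T came down to 27.9% without cells E2 and H1, and the 56.6% of TXN to 48.4%. In NEB it ran from 25.7% for PRDX3 and 32.3% for TXN to 67.8% for PRDX6, 68.7% for GPX4 and 71.2% for PRDX5, with a median of 53.7% over 1388 genes. GPX4 thus had the least spread of the 9 in G&T and nearly the most in NEB. In NEB it was at a lower level, and there genes within 1.5-fold of its mean level had a median of 64.5%. Counting error of reads alone would give 11.1% for GPX4 in NEB and 3.89% in G&T.

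**Figure D5:**
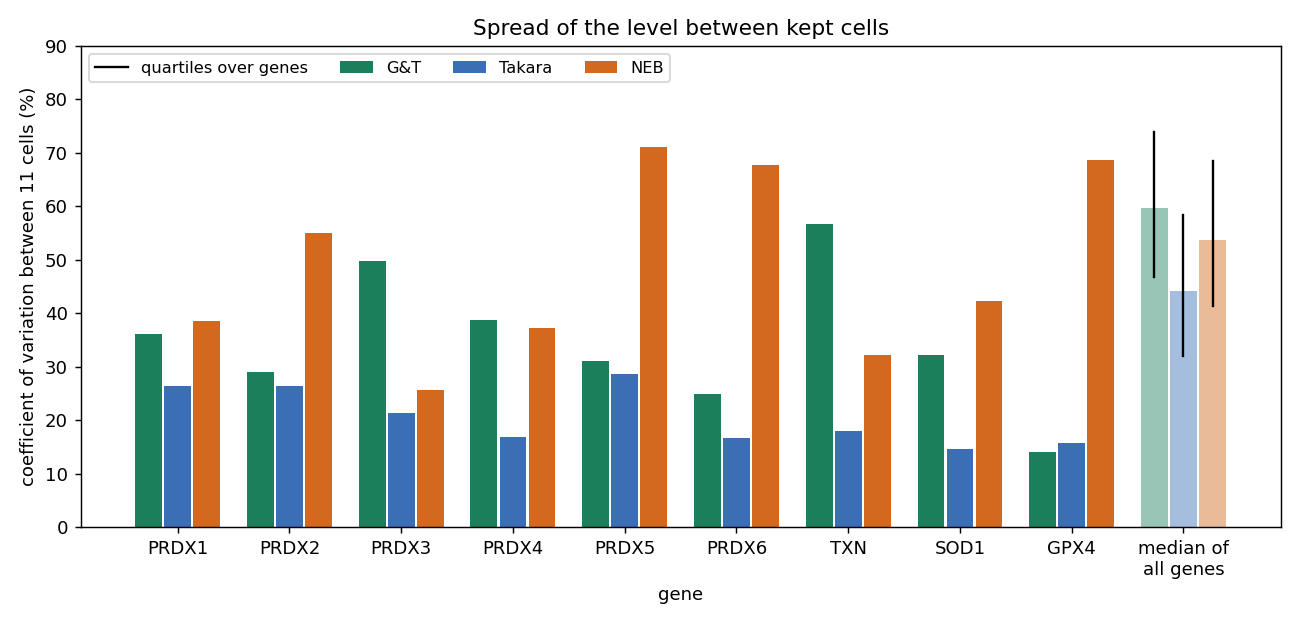
Coefficient of variation of the level between the 11 kept cells of each protocol, in percent, for the 9 genes. The pale bars give the median over all genes read in every cell of the protocol, with their quartiles as black lines. The Takara bars lie under 30% for all 9 genes, and GPX4, PRDX5 and PRDX6 rise above 60% in NEB only.

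Relations among the 9 genes from cell to cell were described within each protocol. Over the 36 pairs the median Spearman rho was 0.31 in Takara and 0.08 in both other protocols, each over 11 cells. In all 3 protocols the sign was positive for 10 pairs and negative for 2. The same was not counted over all pairs of genes, so these counts cannot be called many or few. The highest values were 0.85 for PRDX3 and SOD1 in Takara, 0.76 for SOD1 and GPX4 in G&T, and 0.61 for PRDX1 and PRDX3 in NEB. Cells of a protocol share a run, and each pair shares the cell's total.

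For each of the 9, the gene most like it from cell to cell was sought among 1287 others read in every kept cell, as the highest mean of the 3 within-protocol rho values. GPX4 was nearest to FTH1, the heavy chain of the iron store ferritin (mean rho 0.73, with 0.76, 0.67 and 0.76 in G&T, Takara and NEB). TXN was nearest to PPIA, which encodes cyclophilin A (0.72), PRDX5 to the ribosomal pseudogene RPL10P9 (0.67), whose reads may not be separable from its parent gene, PRDX1 to RPLP0 (0.65), PRDX6 to RPL7 (0.64), PRDX3 to the glycolytic enzyme gene ALDOA (0.61), SOD1 to SAP18 (0.59), PRDX2 to BTF3L4 (0.57) and PRDX4 to TMBIM6 (0.53). These are the highest of 1287 values each and describe these cells only. Over all candidates the median mean rho lay between -0.01 and 0.07.

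A list of 49 other antioxidant genes was examined in the same way. Of these, 43 reached 1 CPM with G&T, 43 with Takara and 37 with NEB, and 30, 33 and 7 had a read in every kept cell (40.1%, 53.1% and 13.5% over all genes at 1 CPM or more). Between G&T and Takara, 5 of 43 tested genes were above 2-fold in G&T (25.7% over all genes) and 9 in Takara (17%). Between G&T and NEB, 16 of 43 were above 2-fold in G&T (48.7%) and 5 in NEB (19.5%). Between Takara and NEB, 19 of 43 were above in Takara (43.7%) and 5 in NEB (24.3%), so the share above in Takara was that of all genes. The median log2 ratios in the same order were -0.40, 0.70 and 0.63, beside 0.16, 0.92 and 0.56 over all genes.

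GPX3, the plasma glutathione peroxidase, separated the protocols most. It had a read in all 11 G&T and all 11 Takara cells, at a pooled 57.5 and 154 CPM, and no read in NEB, for which the upper limit is 0.376 CPM (3 reads over the 11 cells). Set against that limit, its pooled level was at least 153-fold higher in G&T and at least 409-fold higher in Takara. The limit covers counting error only, and reads are not independent molecules, so these are not bounds on the difference in level. Between cells GPX3 ran from 12.4 to 90.9 CPM in G&T and from 23.7 to 412 CPM in Takara. SOD3, the extracellular superoxide dismutase, had 39.1 CPM in G&T, 114 in Takara and 7 reads in 1 NEB cell, D2 (0.878 CPM). Without NEB cell D2 its log2 ratio was 5.32 in place of 4.41 for G&T over NEB and 6.85 in place of 5.94 for Takara over NEB. SELENOW, a small selenoprotein, had 215 CPM with G&T, 170 with Takara and 12.7 with NEB, with reads in 6 of 11 NEB cells. GC content was 55.6%, 68.4% and 56.2% in GPX3, SOD3 and SELENOW.

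In the other direction, NEB was above G&T for NFE2L2, the transcription factor of the antioxidant response (227 against 58.7 CPM), for CAT, which encodes catalase (204 against 72.0 CPM), and for SESN1, a sestrin (21.9 against 1.47 CPM). NEB was above Takara for SLC7A11, the cystine transporter (37.0 against 3.84 CPM), for SESN1 (21.9 against 3.84 CPM) and for GCLM, the modifier subunit of glutamate-cysteine ligase (18.9 against 3.24 CPM). Several of these rest on few NEB cells, with reads in 2 for SLC7A11, 4 for SESN1 and 6 for GCLM. Without NEB cell E2, the log2 ratio of NEB over Takara for SLC7A11 was 1.11 in place of 2.97. For SESN1, the ratio of NEB over G&T was 3.21, and it was 2.47 without NEB cell C1 and 3.98 without G&T cell E1. Without NEB cell C1 the ratio of NEB over Takara for SESN1 was 1.501 in place of 2.25, and without NEB cell G2 that of GCLM was 1.47 in place of 2.23. With the median over cells in place of pooled reads, 0 of the listed genes were above 2-fold in NEB over Takara.

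Between G&T and Takara, SLC7A11 (20.4 against 3.84 CPM), GCLM (log2 ratio 1.82) and SELENOH, a nuclear selenoprotein (182 against 75.7), were higher in G&T. MSRB2, a mitochondrial methionine sulfoxide reductase (37.0 against 5.47 CPM), HMOX2, the constitutive haem oxygenase (191 against 49.2), and GSS, glutathione synthetase (357 against 103), were higher in Takara, and for these 3 of the 43 tested genes no Takara cell overlapped a G&T cell (1.26% over all genes). The other way there were 0 of 43 (0.669%). These shares over all genes again include many genes without a read in every cell, which could not be counted. By role, Takara was above NEB by 2-fold or more, as it was for 43.7% of all genes, for 3 of 7 genes of the thioredoxin system (TXN2, TXNRD2 and TXNRD3) and 3 of 4 methionine sulfoxide reductases (MSRA, MSRB1 and MSRB2). Of 5 genes of glutathione synthesis and recycling, GSR and GSS were above in Takara and GCLM and SLC7A11 above in NEB. Several of these calls rest on few reads or few cells. MSRA had 12 reads in 3 Takara cells and no read in NEB. In NEB, TXNRD3 had reads in 1 cell, and TXNRD2 and MSRB2 in 2 each. The roles named were picked from a longer grouping, and the others are not listed.

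Reads on copies of the genes were few. Of 21 annotated pseudogenes of the 9 genes, 5 had any read in the kept cells, 44 reads in all, which is 0.0682% of the members' reads with G&T, 0.0184% with Takara and 0.0103% with NEB. PRDX3P1 had 23 reads with G&T, 3 with Takara and 1 with NEB. PRDX3P2, PRDX1P1 and TXNP6 had 5 reads each over the 3 protocols, all of those of PRDX1P1 in 1 Takara cell. The exons of PRDX1 overlap those of MMACHC, a gene of cobalamin metabolism on the opposite strand, over 501 bases, 29.8% of the merged exons of PRDX1. The pooled level of MMACHC was 13.4 CPM with G&T, 6.23 with Takara and 8.03 with NEB. Whether the counting used strand is not stated, so reads from that stretch may have been left unassigned, and the part of this in the PRDX1 values was not tested. Reads that STAR called ambiguous between genes were a median 8.31% of a cell's reads with G&T, 10.6% with Takara and 5.67% with NEB.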

How the data were processed

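Single T47D cells were measured by full-length RNA sequencing with 3 protocols. After trimming with Trim Galore and alignment to GRCh38 with STAR, the authors deposited raw read counts, 1 table per protocol, for 60279 genes and 92 ERCC sequences, beside 4 rows of reads assigned to no gene. These counts are not normalized or filtered, and no molecular identifiers were used. The annotation release and strand setting are not given in the sources used here.

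Kept cells had at least 1000 genes, at least 600000 reads on genes and ERCC, and no more than 30% of them mitochondrial or 25% on ERCC. Counts were summed over the kept cells of a protocol and expressed in CPM of reads on genes, and log2 ratios were taken with 1 CPM added. Genes at 1 CPM or more in either protocol of a pair formed the background. Cells served as the spread only, so no p-value was computed. A difference was called larger than the spread when the difference of the cells' mean log2 values exceeded the larger SD. Poisson and Clopper-Pearson intervals (95%) cover counting error only, since reads without molecular identifiers are not independent molecules, and 0 reads was given a limit of 3 reads. Gene models, lengths and GC came from GENCODE release 44, which may not be the authors' release, matched by identifier for 56104 genes.

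The text names all members, for the wider list the 3 genes with the largest ratio past 2-fold per pair and direction, the nearest gene of each member, the 2 pseudogenes with most reads (with ties given) and overlapping genes with reads. Genes listed by role are named beside counts of 5 or fewer. The members, lists and rules were chosen with earlier results of these data known. Ratios between the members of a pair, GC and length quintiles and the grouping by role were added after the values were seen. TMM factors came from edgeR 4.0.16 and size factors from DESeq2 1.42.0, in R 4.3.3. The rest ran in Python 3.11.15 (Biopython 1.88, matplotlib 3.10.9, numpy 2.4.6, pandas 2.3.3, scipy 1.17.1). The computations were tested on simulated data.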

Additional observations from a re-analysis of the deposited data

Results flagged for a closer look

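Among the wells left out, 4 held more than 3 reads, the limit that a count of 0 allows, on at least 5 of the 9 genes taken singly. G&T well F1 held 2871 reads on them, 0.492% of its reads on genes, and G&T well C2 held 2609, 0.370%. In G&T well C2 PRDX3 had 23 reads and TXN 988. NEB well F2 held 1847 reads, 0.336%, and NEB well B2 held 1221, 0.271%, with no read of PRDX1, PRDX2 or GPX4 in NEB well B2. The other 3 wells held 3, 7 and 4 reads over the 9 genes together, with no single gene above 3.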

How the results depend on the processing

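No paired analysis was possible because the results come from no test. With each kept cell left out in turn, the number of members past 2-fold was 2 to 3 for G&T above NEB and 3 to 4 for Takara above NEB, and each other count stayed as given. The changes were PRDX6 (0.89 to 1.18 on the log2 scale, G&T over NEB) without G&T B1, C1, D2, E1, G1 or H1 or NEB A1, A2, C1, D1, E2 or G2, and PRDX1 (0.96 to 1.13, Takara over NEB) without Takara D2 or E2 or NEB C1, C2, D1, E1 or E2. TMM factors gave 2 and 3 for those counts, and 3 in place of 5 wider-list genes for G&T above Takara. DESeq2 size factors gave a median shift over all genes of -0.21 for G&T over NEB and 2 members for NEB above G&T, with PRDX2 added. At 1.5-fold, 1 member was above in G&T over Takara, 2 in Takara over G&T and 2 in NEB over G&T. Per ERCC read, chosen after seeing the data, 6 members were past 2-fold in Takara over G&T, 8 in G&T over NEB, 9 in Takara over NEB, 0 in NEB over G&T and 0 in NEB over Takara, and the ratios of PRDX3 (0.84 for G&T over NEB, 2.04 for Takara over NEB) and TXN (2.48 for Takara over NEB) changed sign, as did 7 ratios short of 2-fold. With the median of cells, 0 wider-list genes were past 2-fold in NEB over Takara. Per kilobase, the PRDX3 share was 15.3% in Takara and 47.3% in NEB. Over all 40 cells, 1 member was read in every Takara well and 2 in every NEB well. With 10 CPM added, PRDX6 (0.96, G&T over NEB) and PRDX1 (0.996, Takara over NEB) were no longer past 2-fold, nor was PRDX6 (0.95) with the mean of cells. The other denominators, added constants and cell means kept the direction of every ratio past 2-fold.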
